A study of Mus musculus with 8 samples.

Results

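In CD11c-positive cells of the mouse spleen, 12 of 13786 genes were close to silent in every mouse of a strain and were read in every mouse of the other. The genes were chosen by their read counts. A gene was taken where all 4 raw read counts of a strain were at most 5 and all 4 of the other strain were at least 30, and genes whose lower coordinate lay on chromosome 1 between 170 and 180 Mb or on chromosome 7 between 40 and 50 Mb were left out. Of the 12 genes, 2 were silent in C57BL/6 mice (Pla2g4d and Catsperg2) and 10 were silent in B6.SLE123 mice (BC147527, Hba-a2, Mroh7, Sbsn, BC035947, Tmem178, Gm21762, Ceacam19, Gsta3 and Gm10037). Since these counts selected the genes, the strain differences of the 12 genes are given as a description and without a test.

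RNA was sequenced from CD11c-positive splenocytes of 4 female C57BL/6 mice and 4 female B6.SLE123 mice, all 7 weeks old and untreated. B6.SLE123 mice are a lupus-prone strain that carries the Sle1, Sle2 and Sle3 intervals of the NZM2410 strain, on chromosomes 1, 4 and 7, on a C57BL/6 background. The authors deposited raw counts for 13786 protein-coding genes, with summed counts per mouse from 25761789 to 32931045 in C57BL/6 mice and from 25563070 to 37367094 in B6.SLE123 mice. Nothing in the labels ties the mice to litters or days, and in bulk RNA fewer cells of a type and less RNA per cell cannot be told apart.

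A congenic strain differs from its background by transferred chromosome intervals, by passenger segments that came with them and by any difference between the colonies used. Reads are aligned to the reference genome, which is that of C57BL/6, and the reads of a gene with a near-identical copy can be assigned to that copy or to neither. Several of the genes described here belong to families with close copies, such as the alpha-globins, the oxygen carriers of red cells.

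The sample labels call the cells dendritic cells. A list of 12 dendritic cell genes (Itgax and Flt3 among them) summed to between 25035 and 29016 CPM (counts scaled to a common library size) in C57BL/6 mice and to between 30222 and 31688 CPM in B6.SLE123 mice, with Cd74, H2-Ab1 and H2-Aa the most abundant. By edgeR's quasi-likelihood test, 10 of these 12 genes were higher in B6.SLE123 mice, beside 26.7% of all genes. The changes were mostly small, with a median log2 fold change of 0.30 over the list, and only Xcr1 (1.23) was more than 2-fold higher. Lower were 2 genes, Sirpa (log2 fold change -0.91, adjusted p = 2.52e-06) and Batf3 (-0.14, adjusted p = 0.0384). A list of 12 red pulp macrophage genes, which includes Vcam1 and Spic, summed to between 13482 and 17205 CPM in C57BL/6 mice and to between 1937 and 3866 CPM in B6.SLE123 mice. All 12 of these macrophage genes were lower in B6.SLE123 mice by edgeR's quasi-likelihood test, with a median log2 fold change of -2.41, beside 26.6% of all genes in the table. The macrophage list therefore moved in the same direction as the 10 genes silent in B6.SLE123 mice, and its part in their counts was not tested. B cell genes were lower for 6 of 8, T cell genes changed for 3 of 8 (2 higher and 1 lower, and 5 without B6.SLE123 replicate 1), and neutrophil genes changed for 3 of 5 (2 higher and 1 lower). Over all genes 53.4% changed, so the T cell share was below and the neutrophil share near that of the table. Cd4 and Cd8a were the most abundant of the T cell list, at 258 and 185 CPM in C57BL/6 mice. Cd3d, Cd3e and Cd3g were at 2.77, 4.13 and 3.76 CPM there and did not pass the test. Which cells carried the RNA of this list was not tested. None of the 12 silent genes belongs to these lists.

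**Figure D1:**
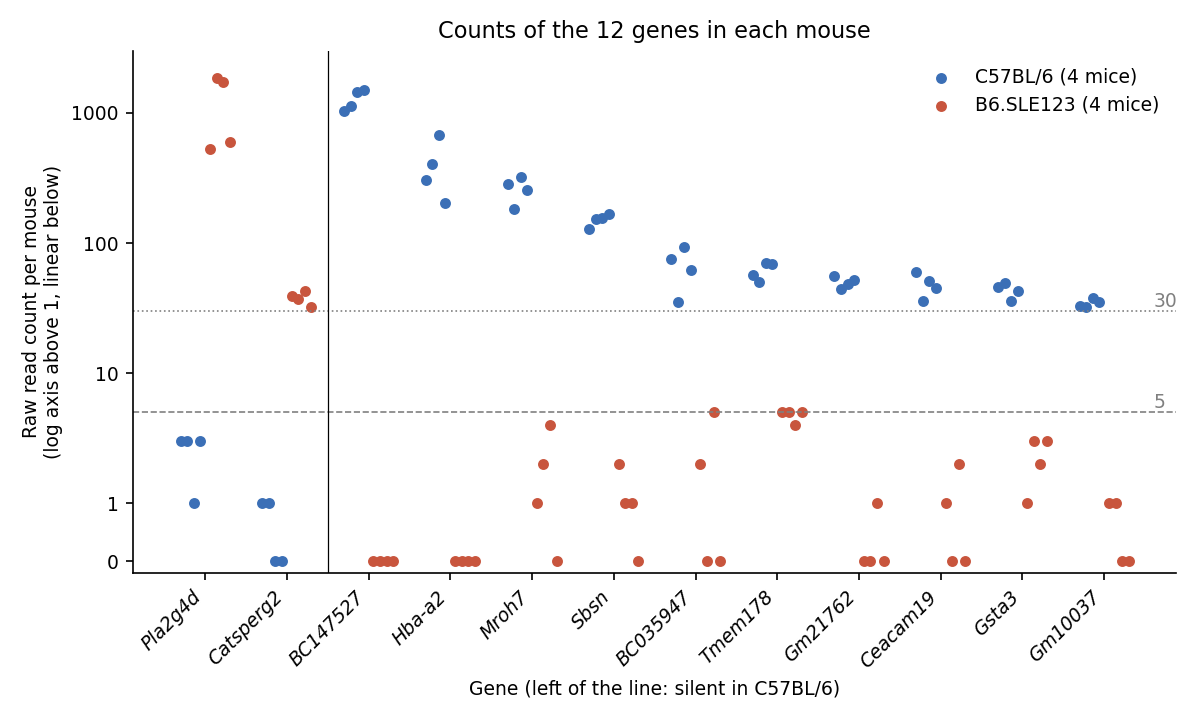
Raw read counts of the 12 genes in each of the 8 mice, on an axis that is logarithmic above 1 count, with the limits of 5 and 30 counts as broken lines. C57BL/6 mice are blue and B6.SLE123 mice red. Pla2g4d and Catsperg2, left of the vertical line, were silent in C57BL/6 mice, and BC147527 and Hba-a2 had 0 counts in all 4 B6.SLE123 mice.

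Pla2g4d, which encodes a cytosolic phospholipase A2 of group IV, an enzyme family that releases fatty acids from membrane phospholipids, was the gene with the highest level among those silent in C57BL/6 mice. It lies on the minus strand of chromosome 2 at chr2:120265595-120289197 (mm10). It had 3, 3, 1 and 3 counts in the 4 C57BL/6 mice and 526, 1842, 1722 and 596 counts in the 4 B6.SLE123 mice. All B6.SLE123 mice were above all C57BL/6 mice, and replicates 2 and 3 of B6.SLE123 were well above the other two. The level was 35.1 CPM ± 17.7 (SD, n = 4) in B6.SLE123 mice, 423-fold that of C57BL/6 mice, with a 95% exact counting interval of 230 to 882. Intervals of this kind cover counting error only. The coefficient of variation in B6.SLE123 mice, 50.2%, was the highest of the 12 genes.

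The other gene silent in C57BL/6 mice, Catsperg2, encodes an auxiliary gamma subunit of the sperm calcium channel CatSper and lies on the minus strand at chr7:29697219-29727032. The C57BL/6 mice had 1, 1, 0 and 0 counts and the B6.SLE123 mice had 39, 37, 43 and 32 counts. Its level in B6.SLE123 mice was low, 1.19 CPM ± 0.13 (SD, n = 4), and was 68.1-fold that of C57BL/6 mice (95% exact counting interval 18.5 to 568).

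Group IV phospholipases A2 other than Pla2g4d did not follow a common direction. Of the 4 others in the table, 2 were higher and 1 was lower in B6.SLE123 mice by edgeR's quasi-likelihood test, where 53.4% of all genes were called and 26.7% were called as higher. Pla2g4f, whose lower coordinate lies 34362 bases from that of Pla2g4d, had 409, 486, 436 and 531 counts in C57BL/6 mice and 1212, 3198, 2299 and 1680 counts in B6.SLE123 mice. The strains did not overlap, and the log2 fold change was 2.0 ± 0.21 (SE, adjusted p = 1.77e-05). Pla2g4a, the widely expressed member of the group, was lower, with a log2 fold change of -0.94 ± 0.09 (SE, adjusted p = 7.98e-06). Pla2g4b had a log2 fold change of 0.47 ± 0.23 (SE, adjusted p = 0.110). Pla2g4c, with 10 to 20 counts in C57BL/6 mice and 14 to 66 in B6.SLE123 mice, had a log2 fold change of 1.0 ± 0.38 (SE, adjusted p = 0.0455), which was 0.53 (adjusted p = 0.173) without B6.SLE123 replicate 2. Its adjusted p was also above 0.05 without B6.SLE123 replicate 3 (0.0606) and without each C57BL/6 mouse (0.0607 to 0.113).

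As a description of the counts that chose it, Pla2g4d held 10 of 1872 counts summed over Pla2g4d and Pla2g4f in C57BL/6 mice, a share of 0.534% (95% exact interval 0.256 to 0.980). In B6.SLE123 mice it held 4686 of 13075, or 35.8% (35.0 to 36.7), with shares of 26.2% to 42.8% in single mice. No 50-base stretch of the Pla2g4d transcripts occurs in an annotated transcript of another gene, so the pair does not share reads of that length.

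The 250 bases before the RefSeq start of Pla2g4d, at chr2:120289070-120289319 on the minus strand (RefSeq, GRCm38.p6), are printed because the gene had the higher level of the pair silent in C57BL/6 mice. Capitals mark matches on either strand to TATAAA and to GAGGAA, the latter a short form of the sites of ETS factors such as PU.1. The RefSeq start lies inside the gene as the count table gives it, so that 128 of these bases, with all marked matches, fall within that gene.
Pla2g4d: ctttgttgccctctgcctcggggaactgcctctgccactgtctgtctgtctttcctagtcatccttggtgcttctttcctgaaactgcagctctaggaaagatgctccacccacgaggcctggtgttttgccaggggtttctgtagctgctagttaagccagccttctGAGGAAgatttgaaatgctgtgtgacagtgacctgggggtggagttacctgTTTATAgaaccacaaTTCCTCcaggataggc
TATAAA was found in 12.4% and GAGGAA in 23.3% of 32851 promoters of this length, on either strand, and the matches are a description of the letters only. Of the 12 silent genes, 9 had a promoter in the RefSeq table, and of these 5 held GAGGAA (BC147527, Gsta3, Mroh7, Pla2g4d and Sbsn), 2 held TATAAA (Gm10037 and Pla2g4d), 3 held CCAAT (Gsta3, Hba-a2 and Mroh7) and 2 held GATAA (Gsta3 and Hba-a2). CCAAT was found in 33.9% and GATAA, the core of GATA factor sites, in 22.6% of all promoters. A silent gene was counted where any of its promoters held the match, while the percentages are of single promoters of all RefSeq genes. The counts of genes and these percentages are therefore unlike measures and were not compared.

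Hba-a2, a gene of adult alpha-globin, was the second most abundant gene silent in B6.SLE123 mice and had no counts in that strain. It lies on the plus strand at chr11:32296489-32297298. The C57BL/6 mice had 307, 405, 671 and 204 counts and all 4 B6.SLE123 mice had 0 counts. The level in C57BL/6 mice was 13.6 CPM ± 5.8 (SD, n = 4), and was at least 586-fold higher than in B6.SLE123 mice, set against 3 counts over the group.

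Hba-a1, the neighbouring alpha-globin gene whose start lies 12978 bases from that of Hba-a2, was read in all 8 mice. It had 802, 1271, 2590 and 581 counts in C57BL/6 mice and 395, 276, 79 and 413 counts in B6.SLE123 mice. The strains did not overlap, and the log2 fold change was -2.24 ± 0.51 (SE, adjusted p = 0.00370). Of the counts of both genes, Hba-a2 held between 20.6% and 27.7% in the C57BL/6 mice, 1587 of 6831 in all, or 23.2% (95% exact interval 22.2 to 24.3). In B6.SLE123 mice it held 0 of 1163, with an upper limit of 0.317% by the same interval and of 0.258% if a count of 0 allows up to 3 counts. The counts of Hba-a2 chose it, so these shares are a description.

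The alpha-globin genes are near-identical in the reference. Over 429 coding bases they differ at 1 position, T381C, counted from 1 at the first base of the start codon, with the base of Hba-a2 first. The windows of 61 bases around it show with a capital a base by which a read could be assigned, at chr11:32297130-32297190 for Hba-a2 and chr11:32284313-32284373 for Hba-a1 (mm10, plus strand).
Hba-a2: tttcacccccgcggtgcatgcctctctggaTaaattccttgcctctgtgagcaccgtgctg
Hba-a1: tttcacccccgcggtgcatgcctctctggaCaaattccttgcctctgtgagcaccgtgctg
Of 505 stretches of 50 bases in the Hba-a2 transcripts, 439 also occur in Hba-a1 and 66 do not, and in a transcript 50 of them cover this base. For reads of 50 bases, counts of Hba-a2 would thus rest on a small part of the transcript. The length of the reads was not used here. The values of both alpha-globin genes are uncertain where a read fits both. The share of Hba-a2 is a share of the reads assigned, not of all alpha-globin transcripts.

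The promoter of Hba-a2, at chr11:32296242-32296491 on the plus strand (RefSeq, GRCm38.p6), is printed beside the coding windows because 247 of 247 aligned bases are the same in the RefSeq promoter of Hba-a1. Capitals mark GATAA, 185 bases before the start, and CCAAT, 91 bases before it.
Hba-a2: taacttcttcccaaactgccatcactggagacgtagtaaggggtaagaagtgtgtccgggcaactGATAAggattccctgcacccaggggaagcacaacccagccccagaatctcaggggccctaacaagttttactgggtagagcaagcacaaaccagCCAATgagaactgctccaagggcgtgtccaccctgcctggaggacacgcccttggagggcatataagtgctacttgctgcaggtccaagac

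Most genes of an erythroid list, which holds the alpha-globin gene Hba-a1, were lower in B6.SLE123 mice. Of its 15 genes, 11 were lower and 1 was higher, beside 26.6% and 26.7% of all genes. The median log2 fold change was -2.55 beside -0.002 over all genes. The list summed to between 64.1 and 263 CPM in C57BL/6 mice and to between 13.3 and 46.6 CPM in B6.SLE123 mice. Some levels were low, such as 0.52 CPM for Rhag and 0.32 CPM for Tmod1 in C57BL/6 mice. With at least 10 counts required in every mouse of a strain, 8 genes of the list were called, where genes that the filter removed count as not called. Hbb-bs, a gene of adult beta-globin, had a log2 fold change of -3.03 ± 0.51 (SE, adjusted p = 5.03e-04). Slc4a1, the anion exchanger band 3 of the red cell membrane, had a log2 fold change of -3.50 ± 0.86 (SE, adjusted p = 0.00531), and Alas2, the erythroid enzyme of heme synthesis, one of -2.48 ± 0.45 (SE, adjusted p = 8.54e-04). Sptb, beta-spectrin, was higher (0.61 ± 0.23, SE, adjusted p = 0.0419), while Klf1, Ank1 and Hemgn did not pass the test (adjusted p = 0.137, 0.410 and 0.0517). No gene of the list, which does not hold Hba-a2, met the limits for silence, and the part of erythroid RNA in the Hba-a2 counts was not tested.

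**Figure D2:**
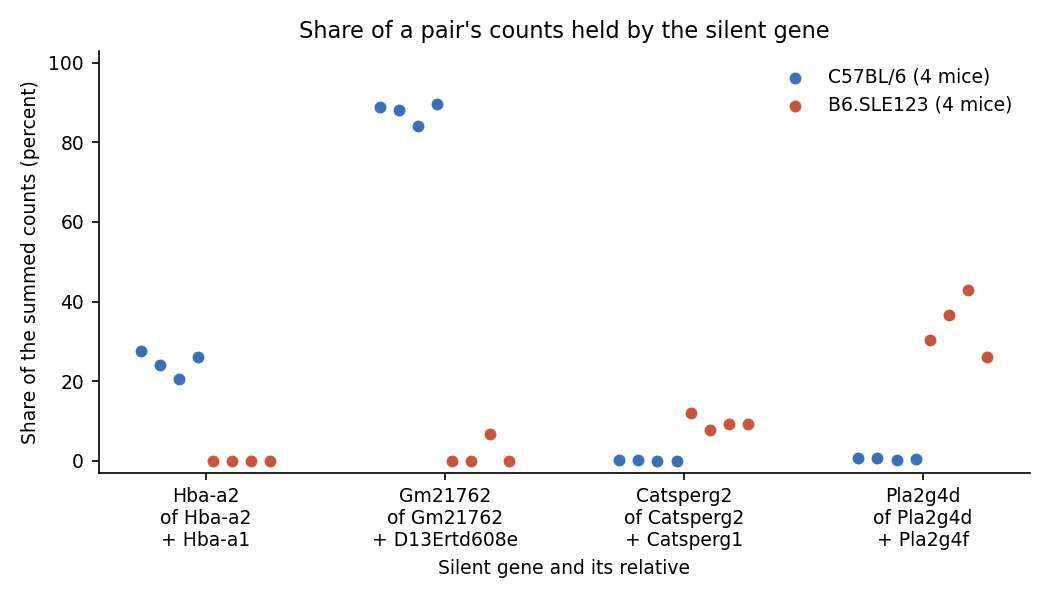
Share of the summed counts of a pair of relatives that the silent gene held in each mouse, in percent, for C57BL/6 (blue) and B6.SLE123 (red) mice. Hba-a2 held 20.6% to 27.7% in C57BL/6 mice and 0 in B6.SLE123 mice, and the strains did not overlap in any of the 4 pairs. The counts of the silent gene chose it, so the separation of the strains follows from the choice and is a description.

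BC147527, a predicted gene without an assigned function here, had the highest level of all 12 genes. It lies on the plus strand at chr13:120300392-120308779. The C57BL/6 mice had 1035, 1131, 1439 and 1506 counts and the B6.SLE123 mice 0 counts in all 4. The level in C57BL/6 mice was 44.1 CPM ± 4.4 (SD, n = 4), and was at least 1888-fold higher than in B6.SLE123 mice, set against 3 counts over the group. A processed pseudogene on the opposite strand, Gm20900, overlaps it, and 14.3% of its 50-base stretches occur in transcripts of other genes, most of them in Gm8953.

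Gm21762, on the minus strand at chr13:120214593-120215947, lies 85799 bases from BC147527 by their lower coordinates, and these were the only 2 of the 12 genes within 1 Mb of each other. It had 56, 44, 48 and 52 counts in C57BL/6 mice and 0, 0, 1 and 0 counts in B6.SLE123 mice. The level in C57BL/6 mice was 1.75 CPM ± 0.27 (SD, n = 4), 222-fold that of B6.SLE123 mice (95% exact counting interval 39.3 to 8800).

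D13Ertd608e, a near-identical copy of Gm21762 on the same chromosome, went the other way. It had 7, 6, 9 and 6 counts in C57BL/6 mice and 48, 27, 14 and 14 counts in B6.SLE123 mice. No B6.SLE123 mouse overlapped the C57BL/6 mice, and the log2 fold change was 1.71 ± 0.45 (SE, adjusted p = 0.00716). Of the counts of both genes, Gm21762 held 200 of 228 in C57BL/6 mice, 87.7% (95% exact interval 82.7 to 91.7), and 1 of 104 in B6.SLE123 mice, 0.962% (0.0243 to 5.24). The counts of Gm21762 chose it, so its shares are a description. Both copies together gave between 50 and 63 counts per C57BL/6 mouse and between 14 and 48 per B6.SLE123 mouse.

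The copies have 456 coding bases each and differ at 1 of them, G93A, counted from 1 at the start codon with the base of Gm21762 first. Windows of 61 bases are shown with that base in capitals, at chr13:120215091-120215151 on the minus strand for Gm21762 and chr13:119846134-119846194 on the plus strand for D13Ertd608e (mm10).
Gm21762: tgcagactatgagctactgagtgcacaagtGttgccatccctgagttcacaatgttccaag
D13Ertd608e: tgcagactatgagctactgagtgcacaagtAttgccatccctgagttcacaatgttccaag
Of 781 stretches of 50 bases in the Gm21762 transcripts, 605 also occur in D13Ertd608e. For reads of 50 bases, the assignment to either copy would be uncertain over that part, and the strains' shares are shares of the reads assigned.

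The table holds 13 genes within 1 Mb of BC147527, and of the 11 that were not silent 3 were lower (27.3%, beside 26.6% of all genes), 1 was higher and 7 did not pass the test. The share of lower genes was thus near that of the whole table. Gm21188 had 392, 426, 582 and 363 counts in C57BL/6 mice and 93, 68, 70 and 53 counts in B6.SLE123 mice, without overlap, and a log2 fold change of -2.77 ± 0.16 (SE, adjusted p = 4.93e-07). AF067061, between Gm21762 and BC147527, had 5, 10, 12 and 10 counts in C57BL/6 mice and 0, 0, 2 and 0 in B6.SLE123 mice (log2 fold change -4.04 ± 0.76, SE, adjusted p = 6.64e-04), which was -6.28 without B6.SLE123 replicate 3, the mouse with the 2 counts. The third lower gene, 4833420G17Rik, changed little (log2 fold change -0.23 ± 0.06, SE, adjusted p = 0.00672). Paip1, a regulator of translation, and Hmgcs1, an enzyme of cholesterol synthesis, had log2 fold changes of 0.03 ± 0.05 (SE, adjusted p = 0.641) and -0.10 ± 0.06 (SE, adjusted p = 0.178).

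Mroh7, a gene of the maestro heat-like repeat family, lies on the minus strand at chr4:106680417-106730925. It had 284, 181, 323 and 256 counts in C57BL/6 mice and 1, 2, 4 and 0 in B6.SLE123 mice. The level in C57BL/6 mice was 9.00 CPM ± 1.66 (SD, n = 4), 165-fold that of B6.SLE123 mice (95% exact counting interval 80.0 to 412). Sbsn, which encodes suprabasin, a secreted protein known from the epidermis, lies on the plus strand at chr7:30751471-30756134. It had 129, 154, 155 and 166 counts in C57BL/6 mice and 2, 1, 1 and 0 in B6.SLE123 mice. Its level in C57BL/6 mice was 5.25 CPM ± 0.55 (SD, n = 4), 167-fold that of B6.SLE123 mice (65.0 to 616), and the processed transcript Tmem147os overlaps it on the same strand and shares 231 of its 1934 stretches of 50 bases.

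The remaining 5 genes had fewer than 100 counts in every mouse. BC035947, on the minus strand at chr1:78497026-78512158, had 75, 35, 94 and 62 counts in C57BL/6 mice and 2, 0, 5 and 0 in B6.SLE123 mice, a ratio of 42.1 (95% exact counting interval 20.2 to 106). Tmem178, a membrane protein of the endoplasmic reticulum, at chr17:80944632-81001816 on the plus strand, had 57, 50, 70 and 69 counts in C57BL/6 mice and 5, 5, 4 and 5 in B6.SLE123 mice. It thus had the smallest ratio of the 12 genes, 14.4 (9.00 to 24.2), and was low rather than absent in B6.SLE123 mice.

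Gsta3, an alpha-class glutathione S-transferase that conjugates glutathione to reactive compounds, lies on the plus strand at chr1:21240589-21265661. It had 46, 49, 36 and 43 counts in C57BL/6 mice and 1, 3, 2 and 3 in B6.SLE123 mice, a ratio of 21.4 (11.0 to 47.7). Its relative Gsta4, which acts on products of lipid peroxidation and lies on another chromosome, was also lower, with 170, 159, 177 and 168 counts in C57BL/6 mice and 24, 12, 30 and 39 in B6.SLE123 mice (log2 fold change -2.80 ± 0.30, SE, adjusted p = 1.85e-05). Ceacam19, of the carcinoembryonic antigen family of cell surface proteins, at chr7:19875742-19887965 on the minus strand, had 60, 36, 51 and 45 counts in C57BL/6 mice and 1, 0, 2 and 0 in B6.SLE123 mice, a ratio of 70.9 (23.9 to 347). Gm10037, at chr13:67831106-67844035 on the plus strand, had 33, 32, 38 and 35 counts in C57BL/6 mice and 1, 1, 0 and 0 in B6.SLE123 mice, a ratio of 76.5 (20.8 to 638).

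In the strain that had them, the mean levels of the 12 genes ran from 1.19 CPM (Catsperg2) to 44.1 CPM (BC147527), with a median of 2.20 CPM. Per kilobase of annotated exon the order was led by BC147527 (27.6 CPM per kb), Hba-a2 (20.4) and Pla2g4d (9.53), and Catsperg2 was lowest (0.169). The coefficient of variation between mice of that strain ran from 3.91% for Gm10037 to 50.2% for Pla2g4d, with a median of 17.0%, and Hba-a2 had the second highest, 42.8%. In the silent strain, 2 genes had 0 counts in all 4 mice and the other 10 had between 1 and 19 counts over the 4 mice.

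The limits of the choice fell among genes with similar counts. Just below the lower limit were Tll2 (29 to 41 counts in C57BL/6 mice and 2 to 4 in B6.SLE123 mice), Tescl (0 to 2 and 25 to 31) and Syt14 (0 to 3 and 24 to 69), and in all 6 genes had 20 to 29 as the lowest count of the strain that was read. Just above the upper limit were Gm20075 (4 to 6 in C57BL/6 mice and 131 to 152 in B6.SLE123 mice), Ccdc8 (41 to 68 and 4 to 6) and Exoc3l2 (35 to 59 and 0 to 6), among 14 genes with 6 to 10 as the highest count of the silent strain. Just inside the lower limit were Gm10037, Catsperg2 (lowest counts 32 each) and BC035947 (35), and just inside the upper limit were BC035947, Tmem178 (highest counts 5 each) and Mroh7 (4). With the left-out regions included, 16 genes met the limits, 0.116% of the table. The additional 4, Itln1, Sh2d1b2, Kcnj14 and Slc6a16, were all silent in C57BL/6 mice and lay among 235 genes of those regions.

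By position, 2 of the 12 genes were on chromosome 1, 1 on chromosome 2, 1 on chromosome 4, 3 on chromosome 7, 1 on chromosome 11, 3 on chromosome 13 and 1 on chromosome 17. Chromosomes 1, 4 and 7, which carry the Sle intervals, thus held 6 of the 12. They hold 18.6% of the genes of the table with the left-out regions taken off. These are shares of whole chromosomes, and the bounds of the Sle intervals were not used. Whether any of these 6 genes lies inside an Sle interval was not tested. The other 6 genes, among them Pla2g4d, Hba-a2 and BC147527, lay on chromosomes that carry no Sle interval by the strain's description. Only 1 window of 10 Mb held more than 1 of the genes, that of Gm21762 and BC147527, which holds 5 genes of the table. Catsperg2 and Sbsn lay 1.05 Mb apart on chromosome 7 by their lower coordinates, with the former silent in C57BL/6 mice and the latter in B6.SLE123 mice.

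The genes next to the 12 were not used to choose them and could be tested. Hba-a1 and Mogat1 share sequence with the silent genes Hba-a2 and BC035947 beside them, so their counts may not be independent of the choice. Of 22 flanking genes, the nearest on each side within 1 Mb, 16 passed the test, 5 higher and 11 lower in B6.SLE123 mice, which is 72.7% beside 53.4% of all genes. Without Mogat1, which overlaps a silent gene, 15 of 21 passed. The median log2 fold change of the 22 was -0.21. Over all genes 26.6% were lower and 26.7% were higher. Of the 18 that flank genes silent in B6.SLE123 mice, 11 were lower and 2 were higher. Of the 4 that flank genes silent in C57BL/6 mice, 3 were higher, while the fourth, Ehd4, had a log2 fold change of -0.12 (adjusted p = 0.0687). With a more than 2-fold change as an additional limit, 1 flanking gene was higher (Pla2g4f), beside 2.76% of all genes, and 7 were lower, beside 8.29% of all genes. These were Hba-a1, Gm21188, AF067061, Tmem14a, Khdc1a, Mogat1 and Zfp273.

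**Figure D3:**
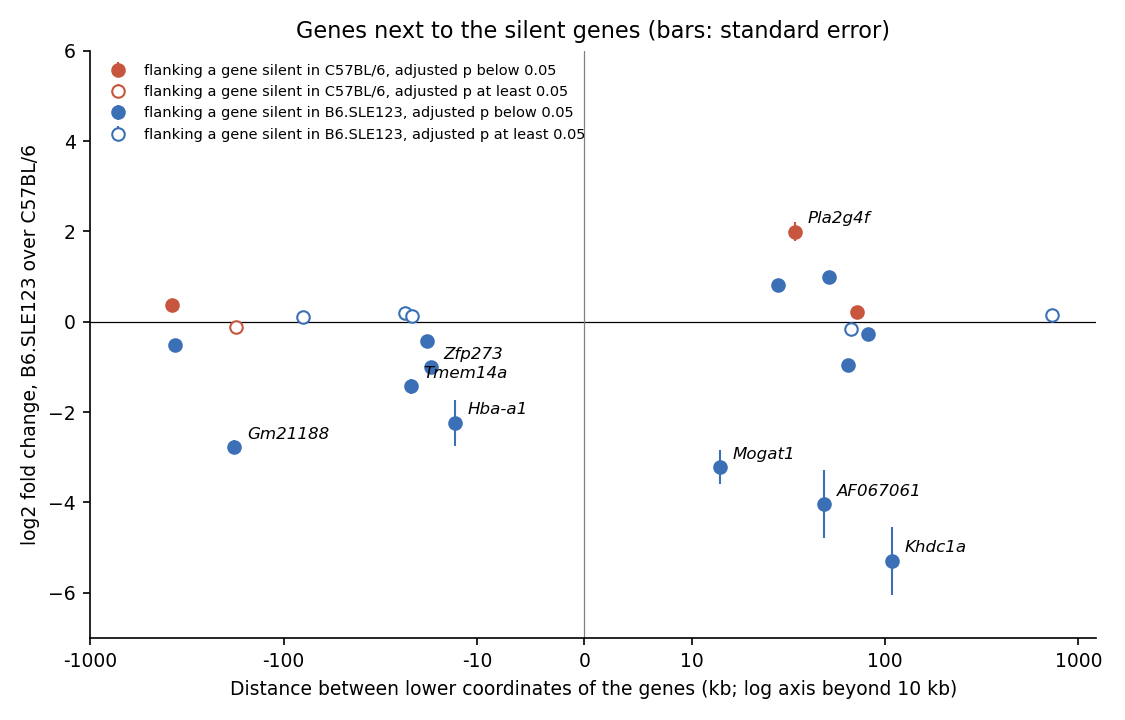
Log2 fold change (B6.SLE123 over C57BL/6) with its standard error for the 22 flanking genes, against the distance between the lower coordinates of the flanking and the silent gene in kilobases, negative for a flanking gene at lower coordinates. Filled points passed the test, and AF067061, which flanks 2 silent genes, is drawn once. Named genes changed more than 2-fold, from -5.29 for Khdc1a to 2.0 for Pla2g4f.

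On chromosome 1 both neighbours of Gsta3 were lower. Tmem14a, a small membrane protein gene, had 124 to 176 counts in C57BL/6 mice and 50 to 74 in B6.SLE123 mice (log2 fold change -1.43 ± 0.16, SE, adjusted p = 2.70e-05). Khdc1a, a KH-domain gene known from oocytes, had 16, 15, 14 and 8 counts in C57BL/6 mice and 0, 1, 0 and 0 in B6.SLE123 mice (-5.29 ± 0.76, SE, adjusted p = 7.62e-05), which was -6.79 without B6.SLE123 replicate 2, the mouse with the 1 count. Mogat1, a monoacylglycerol acyltransferase on the opposite strand that overlaps BC035947, had 55, 38, 98 and 60 counts in C57BL/6 mice and 3, 7, 14 and 5 in B6.SLE123 mice (-3.22 ± 0.37, SE, adjusted p = 3.13e-05). The strand setting of the counting is not given in the sources used here, so reads of BC035947 and Mogat1 may not be separable where they overlap.

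Zfp273, a zinc finger gene next to Gm10037, had 137 to 185 counts in C57BL/6 mice and 86 to 96 in B6.SLE123 mice (log2 fold change -1.01 ± 0.13, SE, adjusted p = 9.10e-05). Acot11 and Ttc4, on either side of Mroh7, had log2 fold changes of -0.96 ± 0.08 (SE, adjusted p = 3.70e-06) and -0.44 ± 0.05 (SE, adjusted p = 4.30e-05). Sh3pxd2b, on the other side of Hba-a2 from Hba-a1, was higher (0.998 ± 0.119, SE, adjusted p = 4.42e-05), as was Pvr next to Ceacam19 (0.82 ± 0.07, SE, adjusted p = 5.55e-06). Gapdhs and Ffar2, on either side of Sbsn, did not pass the test, with log2 fold changes of 0.13 ± 0.14 (SE, adjusted p = 0.456) and -0.16 ± 0.10 (SE, adjusted p = 0.182).

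Relatives by symbol were found in the table for 6 of the 12 genes. Of 22 relatives, 13 passed the test, 2 higher and 11 lower, which is 59.1% beside 53.4% of all genes. By direction, 26.7% of all genes were higher and 26.6% were lower. Among 11 phospholipase relatives of Pla2g4d, 6 were lower and 2 were higher. The lower ones included Pla2g15, the lysosomal phospholipase A2 (276 CPM ± 39 in C57BL/6 mice and 51.9 CPM ± 14.5 in B6.SLE123 mice, SD, n = 4, log2 fold change -2.42), and Pla2g7, the platelet-activating factor acetylhydrolase (187 CPM ± 32 and 55.3 CPM ± 12.6, SD, n = 4, log2 fold change -1.76), with adjusted p of 1.56e-06 and 8.87e-06 by edgeR's quasi-likelihood test. Of the 3 Mroh relatives of Mroh7, 2 were lower, with Mroh6 the larger change (log2 fold change -1.12 ± 0.28, SE, adjusted p = 0.00602). Of 5 Ceacam relatives of Ceacam19, 1 was lower, Ceacam18 (-1.40 ± 0.30, SE, adjusted p = 0.00219).

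Catsperg1, the only relative of Catsperg2, did not pass the test. It had 340, 356, 334 and 327 counts in C57BL/6 mice and 285, 437, 415 and 311 counts in B6.SLE123 mice. The strains overlapped, with a log2 fold change of -0.07 ± 0.12 (SE, adjusted p = 0.670). Catsperg2 held 2 of 1359 counts of the pair in C57BL/6 mice, 0.147% (95% exact interval 0.0178 to 0.531), and 151 of 1599 in B6.SLE123 mice, 9.44% (8.05 to 11.0). The counts of Catsperg2 chose it, so its shares are a description. The Catsperg genes share 1603 of the 3908 stretches of 50 bases in the Catsperg2 transcripts.

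Over the 12 genes, the share of 50-base stretches found in a transcript of another gene was 86.9% for Hba-a2, 77.5% for Gm21762, 41.0% for Catsperg2, 14.3% for BC147527, 11.9% for Sbsn, 6.17% for BC035947, 3.65% for Gm10037 and 0.211% for Ceacam19. It was 0 for Pla2g4d, Mroh7, Gsta3 and Tmem178. More than 50% was shared by 2 of the 12 genes, beside 3.93% of 13389 genes with transcripts in the annotation, and more than 10% by 5 of the 12, beside 19.9%.

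**Figure D4:**
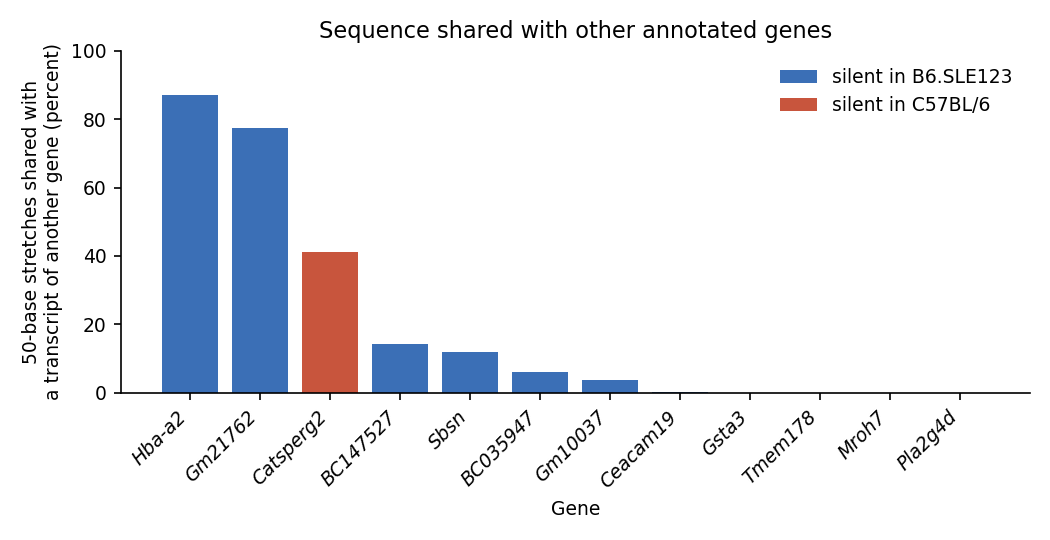
Percentage of the 50-base stretches of each silent gene's annotated transcripts that also occur in a transcript of another gene, for genes silent in B6.SLE123 mice (blue) and in C57BL/6 mice (red). The bars run from 86.9% for Hba-a2 to 0 for 4 genes.

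**Figure D5:**
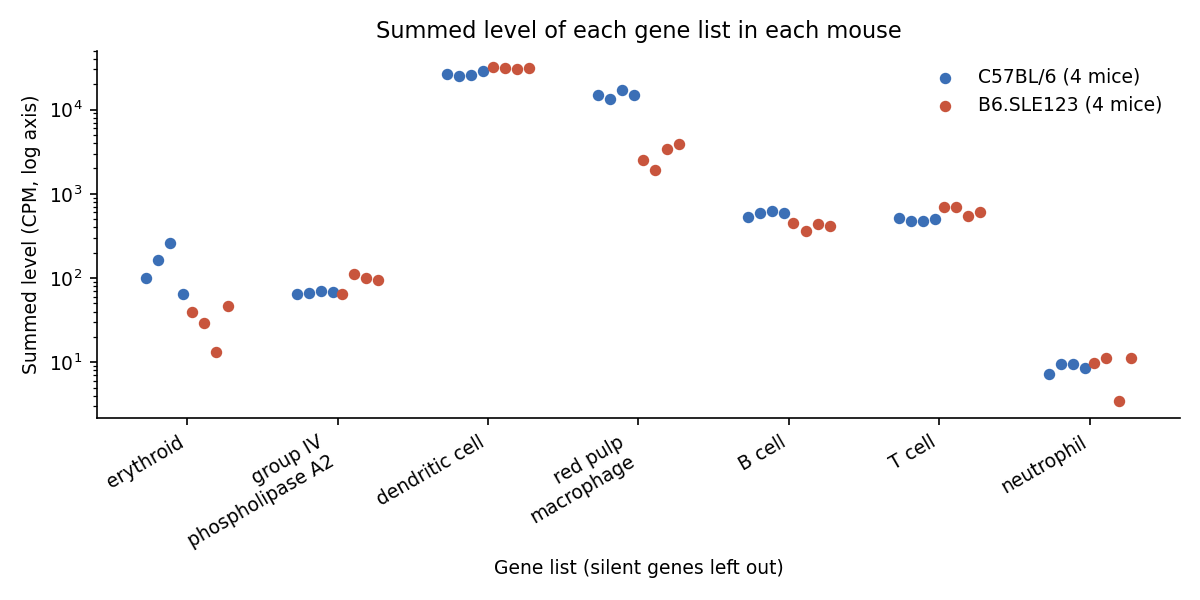
Summed level in CPM, on a logarithmic axis, of each fixed gene list in the 4 C57BL/6 mice (blue) and the 4 B6.SLE123 mice (red), with silent genes left out. The red pulp macrophage list lies between 13482 and 17205 CPM in C57BL/6 mice and between 1937 and 3866 CPM in B6.SLE123 mice, and the erythroid list is also lower in every B6.SLE123 mouse.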

How the data were processed

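RNA libraries were made with a stranded mRNA kit. According to the methods and the submitters' processing notes, the authors ran FastQC and cutadapt on the reads, used STAR for alignment to the mm10 build and took counts per gene from featureCounts. They deposited raw counts for 13786 protein-coding genes, whose larger strain median is at least 5 counts, beside columns of their DESeq2 comparison, which were not used. The strand setting is not given in the sources used here. Strain was taken from the sample titles, since the genotype number rises from mouse to mouse.

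All genes were fitted in edgeR 4.0.16 (R 4.3.3) with TMM factors and the quasi-likelihood test, with Benjamini-Hochberg adjustment over 13786 genes and a threshold of 0.05. The fit was also run on counts simulated with the spread estimated from these data. Only genes with higher mean counts were changed there, so that run does not bear on genes close to silent. A fold against a strain with no counts uses 3 counts over the group. The 12 genes, and the gene lists, were chosen with earlier results of these data known. Every silent gene is named, as are flanking genes and relatives with an adjusted p below 0.05 and a more than 2-fold change, and members of the lists. Neighbours of the chromosome 13 pair and flanking genes with smaller changes were named after their values were seen. Relatives share the letters before the first digit of a symbol. A comparison of proteins was planned but was replaced by 50-base stretches shared between GENCODE M21 transcripts, whose coordinates match for all 12 genes. Erythroid, phospholipase, dendritic cell, red pulp macrophage, B cell, T cell and neutrophil lists were used. Alternatives were other scaling factors, a count filter, DESeq2 1.42.0, the replicate number as a block, other limits, and each mouse left out. P-values set the strain difference against the spread between mice of the same strain. They cannot separate strain from any other difference between the groups.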

Additional observations from a re-analysis of the deposited data

Results flagged for a closer look

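Within groups of 4 mice, 1 mouse stood apart from the other 3 by Dixon's criterion in 4 of 102 groups examined, over the silent genes, their flanking genes and relatives with a mean of at least 10 counts and the gene lists. Chance gives about 5.1 such groups. B6.SLE123 replicate 2 had the lowest level of Catsperg2, 0.994 CPM beside a group median of 1.25 CPM. B6.SLE123 replicate 1 had the lowest level of its relative Catsperg1, 9.02 CPM beside 11.99 CPM, and the highest level of Ceacam1, a relative of Ceacam19, 35.6 CPM beside 21.1 CPM. C57BL/6 replicate 2 had the highest level of Pla2g2d, a secreted phospholipase, 60.7 CPM beside 48.7 CPM. The levels of the 10 genes silent in B6.SLE123 mice gave no such mouse in C57BL/6 mice, at group sizes of 4.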

How the results depend on the processing

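The number of silent genes depended on the limits. With 0 counts required in the silent strain, 2 genes were left (0 silent in C57BL/6 and 2 in B6.SLE123 mice), and with at most 10 counts there were 26 (6 and 20). With at least 20 counts in the other strain, 5 genes were silent in C57BL/6 mice, with at least 50 there were 6 (1 and 5) and with at least 100 there were 5 (1 and 4). Counts scaled to the smallest library left 9 of the 12, without Catsperg2, Gm10037 and Gsta3, and so 1 silent in C57BL/6 mice, and with no region left out 6 were silent in C57BL/6 mice. Each mouse left out in turn gave 12 to 13 genes (2 to 3 and 10 to 11). All 12 had to stay, since a rule over fewer mice can only be looser, so this setting could show gains only. Within 2 Mb, 4 genes had another silent gene.

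With a more than 2-fold change required, calls fell to 1524 of all genes, 8 flanking genes, 8 relatives, 1 B cell, 1 dendritic cell and 0 T cell genes, of which the largest log2 fold change was 0.64. The nearest 3 genes on each side gave 37 of 58 called, beside 53.4% of all genes and 16 of 22 for the nearest gene on each side. The share called was thus closer to that of the whole table with more neighbours taken. Leaving out each mouse gave 6496 to 7013 calls over all genes, 15 to 17 flanking genes, 12 to 15 relatives, 10 to 12 erythroid and 3 to 5 T cell genes. The log2 fold change of Catsperg1 ran from -0.136 to 0.0251 with a mouse left out, turned to 0.0062 without C57BL/6 replicate 2 and to 0.0251 without B6.SLE123 replicate 1, and did not pass the test in either case. Why these values moved was not tested beyond the change of limits itself.

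Replicate numbers did not pair the mice (correlations of -0.029 to 0.115 between same-numbered mice). With the replicate number as a block, 7183 genes, 18 flanking genes, 12 relatives and 12 red pulp macrophage genes were called, and Pla2g4c lost its call (adjusted p = 0.0617). DESeq2, other scaling factors and the count filter moved no count of calls by more than 1.5 times. The count filter gave 8 erythroid calls, beside 12 without it, where genes that it removed count as not called. Counts of 1 to 5 limit the precision of the ratios.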
